A study of Mus musculus with 22 samples.

Results

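Colon RNA from mice that drank TM, a deep sea water sample, and then TM carrying dextran sulfate sodium (DSS) was compared with colon RNA from mice that drank distilled water. The 5 libraries TM3, TM5, TM6, TM7 and TM8 were set against the 8 control libraries CON1 to CON8, 13 of the 22 libraries of the series, and they were chosen by their labels and by no measured value. In both groups the animals were wild type BALB/c mice, 5 weeks old at the start, and they drank their water freely for 3 weeks. The CON mice received distilled water throughout. The TM mice received TM water, which held 5% DSS in the last 1 week. The design text of the series gives an age of 8 weeks for the mice given DSS. The other libraries were 5 of DSS, mice given distilled water and the same 5% DSS, and 4 of HMLS, mice given another deep sea water sample and the same 5% DSS. No library came from mice given TM water without DSS, so the part of TM water and the part of DSS in a difference from CON cannot be told apart. The labels do not say how many mice each library stands for, and the p-values measure the spread between these libraries.

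DSS is a sulfated polysaccharide that, taken with drinking water, damages the lining of the colon and is a common way to give mice colitis. The colonic lining is renewed from crypt base stem cells held by Wnt signals, and after injury a wound epithelium spreads over the defect. Epithelial cells in contact with bacteria secrete lectins of the Reg3 family and make reactive oxygen through dual oxidases. Neutrophils and macrophages that enter the tissue carry the calprotectin subunits S100a8 and S100a9. Deep sea water is known for its magnesium, calcium and other salts.

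The values were FPKM per gene (fragments per transcript length and library size), which follow the share of a gene in its library. Library size lay between 55174666 and 68733410 reads in TM and between 48872220 and 64226018 in CON. Reads mapped in 91.5 ± 1.27% (SD, n = 5) of TM and 91.0 ± 0.711% (n = 8) of CON, a difference within the spread (two-sided exact permutation test, p = 0.364). TM libraries held fewer genes at 1 FPKM or more, 12872 ± 77.8 against 13072 ± 129 (p = 0.0124 by the same exact permutation test, or 0.0497 adjusted over 4 library measures). Libraries correlated at 0.973 to 0.988 among TM and at 0.981 to 0.993 among CON over the log2 values of the genes. No pair held identical values. Defining markers of colon, such as the carbonic anhydrase Car1 at 1973 to 7531 FPKM, the mucin Muc2 at 2249 to 6659 FPKM and the epithelial cadherin Cdh1 at 107 to 228 FPKM, were present in the 13 libraries. Xist lay between 129 and 305 FPKM and 4 Y-linked genes were at 0 in the 22 libraries.

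Of 13485 genes tested, 3510 differed between TM and CON, 26.0% of them, at an adjusted p under 0.05 (limma on log2(FPKM + 1), Benjamini-Hochberg adjustment over the genes tested). Higher in TM were 1924 genes, 14.3%, and lower were 1586, 11.8%. That split followed the scaling: with upper quartile scaling 1434 were higher and 2269 lower, 38.7% higher in place of 54.8%, and the median over all genes moved from 0.01 to -0.06. Differences below are TM minus CON on the log2(FPKM + 1) scale with the standard error, and this scale understates the change of genes near 1 FPKM. Most calls were small: 274 genes, 2.03%, were called and differed by at least 2-fold. In 628 genes, 4.66%, each TM library lay above each CON library, and in 459 genes, 3.40%, each lay below. The counts of the gene lists below are to be read beside these shares over all genes, 26.0% called, 14.3% higher and 11.8% lower. A gene near the detection limit could enter the test through one group alone: 21 of the higher genes had no CON library at 1 FPKM, and 110 of the lower genes had no TM library there.

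**Figure D1:**
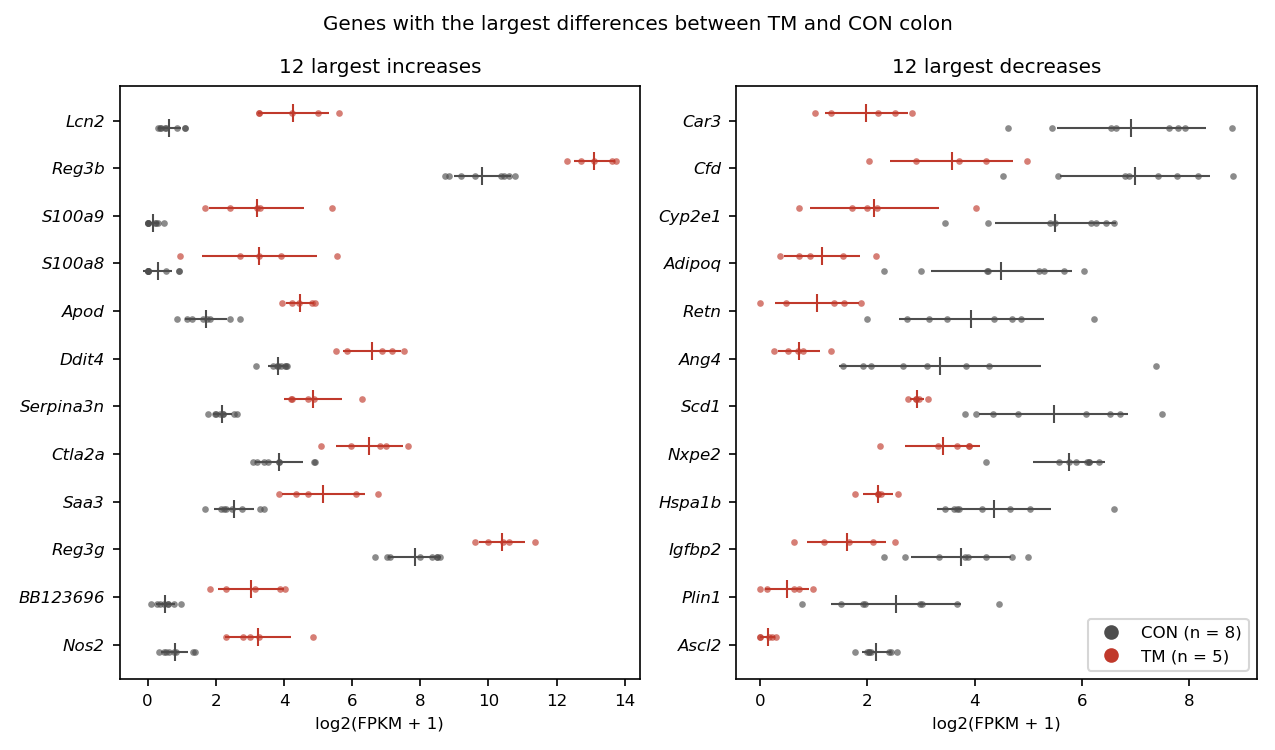
FPKM on a log2(FPKM + 1) axis of the 12 genes with the largest increases and the 12 with the largest decreases among called genes that averaged 1 FPKM or more in the group where they were higher. Points are libraries (5 TM, 8 CON) and bars show the mean ± SD. TM and CON points do not overlap for the 12 increases, and they overlap for 4 of the 12 decreases (Cfd, Cyp2e1, Igfbp2 and Plin1). S100a8, S100a9 and BB123696 entered the test through TM alone, and Ascl2 and Plin1 through CON alone.

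Lcn2 and Reg3b had the largest increases. Lcn2, which encodes lipocalin 2, a protein that binds bacterial siderophores (chromosome 2, 32384637 to 32387739, RefSeq GRCm38.p6), stood at 31.1, 48.4, 8.58, 17.9 and 8.65 FPKM in TM3, TM5, TM6, TM7 and TM8, the order used for TM values throughout. In CON it ran from 0.223 to 1.14 FPKM (median 0.433). Each TM library lay above each CON library, the highest being TM5, and the difference was 3.64 ± 0.35 (adjusted p = 4.78e-05). Reg3b (chromosome 6, 78370885 to 78373466), a lectin that kills bacteria, was among the most abundant transcripts, at 12530.2, 8762, 6769, 13843 and 5085 FPKM against 422 to 1764 FPKM (median 1048) in CON (difference 3.28 ± 0.39, adjusted p = 1.46e-04). Its neighbour Reg3g (chromosome 6, 78466269 to 78468874), a lectin aimed at Gram-positive bacteria, reached 2631, 1564, 1385, 1009 and 771 FPKM against 102 to 382 FPKM (median 288) (difference 2.56 ± 0.38, adjusted p = 6.47e-04). Reg3a rose as well (difference 1.92 ± 0.27, adjusted p = 4.15e-04), from a median of 0.695 FPKM in CON to 5.60 FPKM in TM. In the 3 lectins no TM value fell within the CON range, although TM libraries differed by more than 2-fold among themselves. Of 21 antimicrobial genes tested, 5 were higher and 1 was lower, 28.6% called against 26.0% of all genes (median difference 0.11, against 0.01 over all genes). The fifth was Pglyrp1, a peptidoglycan-binding protein (difference 0.52 ± 0.17, adjusted p = 0.0383), whose call was lost in 8 of the 13 fits that each left out 1 library (CON2, CON4, CON5, CON6, CON8, TM3, TM5 or TM7). The lower one was Ang4, an angiogenin made by secretory cells of the crypt (chromosome 14, 51763892 to 51773590), at 0.437, 0.621, 1.48, 0.738 and 0.196 FPKM against 1.92 to 165 FPKM (median 6.48). Its TM values lay below each CON value, but CON itself spread widely, and the call (difference -2.63 ± 0.83, adjusted p = 0.0352) was lost in 7 of the 13 fits that each left out 1 library (adjusted p 0.00697 to 0.0807 over the 13).

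Acute-phase genes, the plasma and tissue proteins made in response to cytokines, rose as a group: 10 of 16 tested were higher and 1 was lower, with a median of 1.03. S100a8, S100a9 and Saa2 entered the test through TM alone and Orm1 through CON alone. The count of higher genes was 7 to 10 when single libraries were left out and 7 with the replicate number as a block. Saa3, a serum amyloid A made outside the liver, stood at 108, 19.6, 68.3, 25.1 and 13.4 FPKM against 2.24 to 9.72 FPKM (median 4.22) in CON (difference 2.62 ± 0.46, adjusted p = 0.00207). Serpina3n, a serine protease inhibitor, stood at 77.1, 17.9, 17.6, 25 and 28.2 FPKM against 2.43 to 5.19 FPKM (median 3.53) (difference 2.67 ± 0.29, adjusted p = 9.34e-05). TM3 was the highest library for both, and no TM value entered the CON range. Among the others were the leucine-rich glycoprotein Lrg1 (1.73 ± 0.23), Saa1 (1.54 ± 0.50, a call lost in 7 of the 13 fits, without CON1, CON2, CON3, CON5, CON6, TM6 or TM7), the lipopolysaccharide carrier Lbp (1.23 ± 0.18) and its receptor Cd14 (0.99 ± 0.13). Orm1, a plasma carrier protein, was the lower one (difference -1.22 ± 0.39, adjusted p = 0.0347), a call lost in 7 of the 13 fits (without CON2, CON6, CON8, TM5, TM6, TM7 or TM8).

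The calprotectin subunits, which bind zinc and manganese and are abundant in neutrophils, were near absent in CON. S100a9 stood at 41.3, 4.33, 8.89, 8.19 and 2.21 FPKM against 0 to 0.397 FPKM (median 0.0828) (difference 3.04 ± 0.44, adjusted p = 5.83e-04). S100a8 stood at 45.6, 5.53, 8.57, 14.2 and 0.944 FPKM and was at 0 in 5 of the 8 CON libraries (difference 2.98 ± 0.56, adjusted p = 0.00288). TM3 held several times the level of the next library for both genes, and TM8 the lowest TM level of each. The call of S100a8, and that of Saa3, was lost in a fit with the replicate number as a block. Of 24 neutrophil genes only 6 passed the filter on low values, through TM in the case of both subunits and of Retnlg (difference 2.02 ± 0.21, adjusted p = 6.39e-05), a resistin-like gene of myeloid cells, so their count of 4 higher is not read as a share. Cd177, a neutrophil surface protein, was the lower one (difference -0.89 ± 0.30, adjusted p = 0.0424), a call lost in 9 of the 13 fits that left out 1 library and kept without CON2, CON6, CON8 or TM5. The summed FPKM of the 23 genes of the list in the table was 150.4 in TM3 and 34.3 to 68.3 in the other TM libraries, within the CON range of 26.0 to 107.2 apart from TM3. Mpo, the granule peroxidase that defines the lineage, ran from 0 to 0.168 FPKM over the 13 libraries. Here and for other cell types in bulk tissue, a change in the number of cells and a change in RNA per cell cannot be told apart.

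Enzymes that make reactive oxygen and nitrogen rose: 7 of 13 tested were higher and none was lower (median 0.57). Nos2, the inducible nitric oxide synthase (chromosome 11, 78920787 to 78960226), stood at 8.58, 28.2, 5.99, 3.88 and 7.09 FPKM against 0.263 to 1.62 FPKM (median 0.633) (difference 2.46 ± 0.34, adjusted p = 4.11e-04), with TM5 far above the rest. The epithelial hydrogen peroxide source Duox2 stood at 82, 141, 65.7, 87.2 and 55.1 FPKM against 16.2 to 58 FPKM (median 26.5) (difference 1.52 ± 0.30, adjusted p = 0.00361), with only TM8 inside the CON range. Its maturation factor Duoxa2 rose with it (difference 2.32 ± 0.50, adjusted p = 0.00603), as did the oxidase subunits Noxo1 (0.61 ± 0.12) and Cyba (0.58 ± 0.13) and the arginase Arg2 (1.38 ± 0.32).

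Of 34 cytokine and chemokine genes, 13 were abundant enough to test, 5 were higher and none was lower. One of them, Cxcl1, entered the test through TM alone. With no filter on low values 33 were tested and 12 were higher, in a fit where 1771 of 21218 genes were higher. Tnf, the cytokine that drives much of intestinal inflammation, stood at 4.74, 10.3, 5.22, 3.56 and 5.09 FPKM against 0.739 to 2.18 FPKM (median 1.21) (difference 1.45 ± 0.20, adjusted p = 3.08e-04). Cxcl1, which attracts neutrophils, stood at 10.8, 1.85, 2.83, 2.55 and 2.13 FPKM against 0 to 0.927 FPKM (median 0.206) (difference 1.80 ± 0.29, adjusted p = 8.71e-04), with TM3 far above the other TM libraries. Both were above the CON range in the 5 TM libraries. Il1rn, the secreted antagonist of interleukin 1, was several times more abundant than either, at 38.9, 38.5, 45.7, 28.6 and 28.3 FPKM against 6.45 to 22.8 FPKM (median 13.9) (difference 1.28 ± 0.23, adjusted p = 0.00198). Interleukin 18, an epithelial cytokine, rose too (Il18, difference 1.03 ± 0.21, adjusted p = 0.00302). Il1b itself stood at 9.77, 0.257, 1.92, 3.35 and 2.43 FPKM against 0.325 to 2.25 FPKM (median 1.07), above the CON range in TM3, TM7 and TM8 but not in TM5 or TM6, and did not pass the test (difference 0.77 ± 0.37, adjusted p = 0.142). Ptgs2, the inducible prostaglandin synthase, gave no call (difference 0.02 ± 0.29, adjusted p = 0.958) and no stable sign across settings.

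Feedback genes of the NF-kappaB pathway, which its transcription factors induce and which then restrain it, were higher in 10 of 18 cases and lower in 2 (median 0.50). Nfkbia, the inhibitor that holds NF-kappaB in the cytoplasm (chromosome 12, 55489409 to 55492647), stood at 50.7, 142, 78.7, 73.2 and 101 FPKM against 27.7 to 42.9 FPKM (median 30.6) (difference 1.32 ± 0.19, adjusted p = 5.04e-04). Zc3h12a, an RNase that degrades cytokine transcripts, stood at 11, 49.3, 20.1, 11.3 and 19.8 FPKM against 3.82 to 7.37 FPKM (median 4.47) (difference 1.77 ± 0.28, adjusted p = 9.66e-04). TM5 was the highest TM library for both, as it was for Nos2 and Tnf, and none of the TM values overlapped CON. The ubiquitin-binding inhibitor Tnip3 rose most (difference 1.90 ± 0.30, adjusted p = 7.59e-04), while the ubiquitin editor Tnfaip3 (0.63 ± 0.14), the precursor gene Nfkb2 (0.48 ± 0.15) and the subunit gene Rel (0.46 ± 0.16) rose less. The call of Nfkb2 was lost without TM5, and that of Rel in 9 of the 13 fits, all but those without CON6, CON7, CON8 or TM3. Traf1, a receptor adaptor, fell, from 3.91 to 7.88 FPKM (median 5.54) in CON to 1.36, 1.41, 3.32, 1.73 and 1.91 FPKM (difference -1.21 ± 0.16, adjusted p = 2.91e-04), with no overlap.

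The JAK-STAT feedback list gave 6 higher of 14 and none lower (median 0.28). Stat3, which carries the signal of interleukins 6 and 22, stood at 60.8, 60.5, 45.5, 59.9 and 68.1 FPKM against 27.2 to 34.7 FPKM (median 31.1) (difference 0.89 ± 0.10, adjusted p = 6.53e-05). Socs3, its inhibitor and target, stood at 51, 22.5, 25.7, 27.8 and 49.9 FPKM against 3.27 to 18.4 FPKM (median 11.1) (difference 1.80 ± 0.39, adjusted p = 0.00571). Both genes were above CON in each TM library, TM8 being highest for Stat3 and TM3 for Socs3. The receptor genes Il4ra (1.0 ± 0.11) and Osmr (0.62 ± 0.13) rose, and no TM value of either lay within CON. Immediate early genes, which cells switch on within minutes of a stimulus, were higher in 13 of 22 cases and lower in none (median 0.48). Their count of higher genes was 9 to 13 when single libraries were left out and 9 with all 22 libraries in the fit. The RNA-binding protein gene Zfp36, which shortens the life of cytokine transcripts, led the immediate early genes (difference 1.42 ± 0.27, adjusted p = 0.00238), at 54.5, 110.1, 55.6, 125 and 159 FPKM against 20.1 to 52.4 FPKM (median 33.8).

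Promoter sequences of these feedback genes and of Reg3b were read from RefSeq (GRCm38.p6), as the 250 bases before the start on the strand of the gene. A kappaB site was searched as GGGNNTTTCC, or GGAAANNCCC on the other strand, and a STAT site as TTCNNNGAA, which reads the same on both strands. Of 9 NF-kappaB feedback genes called higher that have a promoter in the table, 4 held a kappaB match, and 0 of the 6 others did. Over 32851 promoters of the table the share was 1.41%. A gene was counted if any promoter listed for it held a match, while the share counts single promoters. For the STAT motif 1 of 6 called JAK-STAT genes (Socs3) and 1 of 5 others (Bcl6) held a match, against 7.02% of promoters. These genes were shown because their levels rose and their promoters hold a match. The match is in capitals, and a match is a description of letters and not of binding.
Nfkbia: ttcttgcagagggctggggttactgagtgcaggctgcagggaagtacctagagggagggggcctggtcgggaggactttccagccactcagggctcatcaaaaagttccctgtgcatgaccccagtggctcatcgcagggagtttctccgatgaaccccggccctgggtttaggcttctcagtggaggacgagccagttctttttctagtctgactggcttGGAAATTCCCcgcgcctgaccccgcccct
Nfkb2: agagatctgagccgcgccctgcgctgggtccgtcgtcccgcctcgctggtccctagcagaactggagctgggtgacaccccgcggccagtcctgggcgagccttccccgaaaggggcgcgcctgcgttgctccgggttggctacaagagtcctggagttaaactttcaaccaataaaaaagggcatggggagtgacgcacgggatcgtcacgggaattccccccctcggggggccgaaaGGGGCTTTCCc
Tnfaip3: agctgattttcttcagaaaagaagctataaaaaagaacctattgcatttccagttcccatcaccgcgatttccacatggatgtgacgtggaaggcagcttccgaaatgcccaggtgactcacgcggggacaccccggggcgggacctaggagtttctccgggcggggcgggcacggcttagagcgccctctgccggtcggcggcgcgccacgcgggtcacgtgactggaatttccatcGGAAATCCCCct
Rel: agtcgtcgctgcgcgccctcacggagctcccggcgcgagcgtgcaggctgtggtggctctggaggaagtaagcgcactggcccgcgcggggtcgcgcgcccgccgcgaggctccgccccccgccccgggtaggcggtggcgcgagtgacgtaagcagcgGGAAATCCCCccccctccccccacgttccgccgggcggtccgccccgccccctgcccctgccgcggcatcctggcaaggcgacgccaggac
Socs3: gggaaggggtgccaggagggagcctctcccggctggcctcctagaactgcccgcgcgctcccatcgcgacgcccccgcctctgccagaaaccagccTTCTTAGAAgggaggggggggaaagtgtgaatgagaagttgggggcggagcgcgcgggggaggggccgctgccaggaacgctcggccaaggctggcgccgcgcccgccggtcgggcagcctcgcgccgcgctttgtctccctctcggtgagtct
Reg3b: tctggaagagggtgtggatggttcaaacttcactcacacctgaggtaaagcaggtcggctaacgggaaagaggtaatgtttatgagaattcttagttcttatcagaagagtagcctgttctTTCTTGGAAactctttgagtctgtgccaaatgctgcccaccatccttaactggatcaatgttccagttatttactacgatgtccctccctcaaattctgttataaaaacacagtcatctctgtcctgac

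The kappaB match ended 19 bases before the start in Nfkbia (chr12:55492648-55492897, minus strand), 1 in Nfkb2 (chr19:46304487-46304736, plus strand, one of 3 promoters listed for it), 2 in Tnfaip3 (chr10:19015411-19015660, minus strand, one of 2 listed) and 81 in Rel (chr11:23770970-23771219, minus strand). Tnfaip3 stood at 13.4, 19.6, 17.1, 11.4 and 12.7 FPKM against 6.16 to 11.7 FPKM (median 9.34) in CON (difference 0.63 ± 0.14, adjusted p = 0.00571), and Rel at 2.77, 3.37, 3.29, 2.81 and 2.96 FPKM against 1.09 to 3.29 FPKM (median 1.74) (difference 0.46 ± 0.16, adjusted p = 0.0399). Both overlapped CON, with TM5 the highest TM library. The STAT match ended 145 bases before the start of Socs3 (chr11:117969367-117969616, minus strand) and 120 before that of Reg3b (chr6:78370635-78370884, plus strand). Among the 12 largest increases, 11 had a promoter in the table and 2 of them (Reg3b and Ctla2a) held the STAT motif. Among the 12 largest decreases, 10 had a promoter and 1 of them (Ang4) held that motif. The STAT motif was also in 2 of 9 NF-kappaB feedback genes called higher and in 3 of 6 others.

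Crypt base stem cell genes fell. Of 27 tested, 14 were lower and 1 was higher (median -0.48), where 11.8% of all genes were lower and 14.3% higher. In 10 of the 27 each TM library lay below each CON library, against 3.40% of all genes. The summed FPKM of the 31 genes of the list in the table overlapped, at 814 to 1005 in TM and 858 to 1031 in CON. Ascl2, Lgr5 and Tert entered the test through CON alone. Ascl2, the transcription factor that maintains Lgr5 stem cells (chromosome 7, 142966822 to 142969264), stood at 0.173, 0, 0.235, 0.118 and 0 FPKM against 2.43 to 4.88 FPKM (median 3.15) in CON (difference -2.02 ± 0.13, adjusted p = 1.68e-06). Lgr5 itself, the R-spondin receptor, stood at 0.102, 0.0825, 0.317, 0.0269 and 0.148 FPKM against 1.42 to 2.96 FPKM (median 2.0) (difference -1.43 ± 0.12, adjusted p = 1.39e-05). Axin2, a direct Wnt target that degrades beta-catenin, stood at 0.846, 1.87, 2.18, 1.26 and 2.05 FPKM against 6.70 to 10.4 FPKM (median 9.21) (difference -1.91 ± 0.14, adjusted p = 1.98e-06). The gap was wide in these 3 genes: the highest TM value lay well below the lowest CON value, and no TM library was an exception. Other Wnt-dependent genes moved the same way, namely the guidance receptor Ephb3 (-1.39 ± 0.13), Tnfrsf19 (-1.24 ± 0.11), Cdca7 (-1.29 ± 0.16), the hyaluronan receptor Cd44 (-1.18 ± 0.14) and the Wnt receptor ligase Rnf43 (-0.74 ± 0.09). Prom1, a membrane protein of the list with wide epithelial expression, was the higher one (difference 0.51 ± 0.09, adjusted p = 0.00141). The count of lower genes was 12 to 15 when single libraries were left out. A TCF motif, searched as ATCAAAG and as CTTTGAT on the other strand, was found in 1 of 11 stem cell genes called lower that have a promoter (Tnfrsf19). It was in 1 of 9 others (Sp5) and in 3.21% of all promoters.

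Genes of the regenerating epithelium moved the other way, with 11 of 26 tested higher and none lower (median 0.48). Cldn4, a tight junction claudin, stood at 96.6, 142, 91.1, 86.3 and 101 FPKM against 19.3 to 43 FPKM (median 36.4) (difference 1.56 ± 0.18, adjusted p = 9.34e-05). Plaur, the urokinase receptor of migrating cells, stood at 13.2, 14.5, 10.2, 9.46 and 12.5 FPKM against 3.22 to 5.63 FPKM (median 4.18) (difference 1.32 ± 0.13, adjusted p = 3.38e-05). Neither gene overlapped between the groups. The collagen-binding integrin Itga2 (0.81 ± 0.12) rose, also without overlap. Ligands of the EGF receptor, which drive repair, were part of this group: epiregulin (Ereg, difference 1.76 ± 0.42, adjusted p = 0.00884) and amphiregulin (Areg, difference 1.28 ± 0.32, adjusted p = 0.00984) were highest in TM3, while Hbegf (difference 0.92 ± 0.19, adjusted p = 0.00344) was highest in TM8. Of 21 EGF receptor ligand and feedback genes 7 were higher and 1 was lower (4 higher with all 22 libraries in the fit, 3 lower without TM5). The lower one, the ETS factor Etv5, is also a target of this pathway (difference -1.23 ± 0.26, adjusted p = 0.00461).

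Matrix genes were read in a pair of lists. Of 23 matrix proteases and inhibitors 9 were higher and 1 lower (median 0.36), and without TM5 the count of higher genes was 5. The aggrecanases Adamts1 and Adamts4 led: Adamts1 stood at 24.6, 14.6, 6.19, 7.38 and 12.5 FPKM against 1.56 to 2.78 FPKM (median 1.90) (difference 2.07 ± 0.24, adjusted p = 1.20e-04) and Adamts4 at 14.9, 6.58, 4.99, 6.73 and 5.70 FPKM against 0.444 to 1.69 FPKM (median 1.15) (difference 2.01 ± 0.22, adjusted p = 6.6e-05). TM3 was highest in both and neither overlapped CON. Mmp3, a stromelysin, rose at a lower level (difference 1.09 ± 0.27, adjusted p = 0.00963). Of 45 collagen and matrix genes 12 were lower and 1 was higher, 28.9% called against 26.0% of all genes. The higher one was the crosslinking oxidase Lox (difference 0.84 ± 0.17, adjusted p = 0.00380). Col3a1, a fibrillar collagen of the stroma, stood at 172, 15.6, 52.2, 26.4 and 25.6 FPKM against 77.1 to 133 FPKM (median 114) (difference -1.46 ± 0.43, adjusted p = 0.0243): TM3 was above the whole CON range and the other 4 TM libraries below it, and the call was lost without TM5, TM7 or TM8. Col14a1 was low in the 5 TM libraries (difference -0.97 ± 0.12, adjusted p = 1.38e-04), as was the microfibril gene Mfap5 (difference -0.84 ± 0.16, adjusted p = 0.00201). Mfap5 entered the test through CON alone. The summed FPKM of the matrix list was 1433 in TM3, 573.1 to 726.9 in the other TM libraries and 772.2 to 1148 in CON. Without TM3 the count of lower matrix genes was 23, and without CON5, TM5, TM7 or TM8 it was 5 to 7. Over all genes tested, 2001 were lower without TM3 and 1092 to 1318 without CON5, TM5, TM7 or TM8.

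Cell cycle genes showed the same singular position of TM3. Of 45 replication and mitosis genes none was higher and 6 were lower (median -0.41), 13.3%, near the 11.8% lower over all genes. Without TM3 28 were lower, in a fit where 2001 of 13436 genes were lower. Ccne2, among the 6 lower genes of the main fit, entered the test through CON alone. Pcna, the sliding clamp of DNA polymerase, stood at 50.2, 30.3, 36.3, 37 and 39.9 FPKM against 50.9 to 88.1 FPKM (median 54.3) (difference -0.63 ± 0.14, adjusted p = 0.00525). Dut, which removes dUTP from the nucleotide pool, fell from 5.77 to 11.4 FPKM (median 7.57) to 5.22, 1.86, 4.58, 3.23 and 3.83 FPKM (difference -0.90 ± 0.17, adjusted p = 0.00239). TM values lay below CON in both, with TM3 closest to CON. Mki67, a marker of cycling cells, stood at 23.4, 6.46, 8.14, 5.22 and 7.04 FPKM against 7.84 to 28.2 FPKM (median 13.2) and was not called (difference -0.63 ± 0.32, adjusted p = 0.163). The list summed to 506.8 FPKM in TM3, to 188.1 to 220.1 in the other TM libraries and to 235.8 to 585.5 in CON. Replication-dependent histone genes, taken by name, were lower in 21 of 56 cases and higher in none (median -0.85), in 43 without TM3 and in 9 to 10 without TM5, TM7 or TM8. Of 81 ribosomal protein genes 2 were higher and none was lower (median -0.04, a sign that turned without TM7), with 0 to 6 higher when single libraries were left out, the 6 without CON8.

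In the unfolded protein and heat shock list 9 of 31 were lower and 4 higher (median -0.21). Hspa1b, an inducible Hsp70 chaperone, stood at 4.94, 2.42, 3.77, 3.61 and 3.58 FPKM against 9.93 to 95.1 FPKM (median 14.3) (difference -2.16 ± 0.45, adjusted p = 0.00497). Hsp90aa1, the inducible Hsp90, stood at 63, 47.4, 47.2, 45.6 and 53.6 FPKM against 101 to 243 FPKM (median 111) (difference -1.24 ± 0.18, adjusted p = 4.33e-04). Hsph1, an Hsp110 that recharges Hsp70, stood at 7.67, 4.92, 5.73, 4.59 and 5.26 FPKM against 14.6 to 55.4 FPKM (median 20.9) (difference -1.85 ± 0.25, adjusted p = 3.15e-04). CON1 was the highest library in each of these chaperones, and each TM library lay below each CON library. Hspa1a, a near-identical copy of Hspa1b whose reads the authors' counting could share, gave -1.83 ± 0.42. The cold-inducible RNA-binding protein genes Cirbp (45.5, 154, 78.6, 155 and 125 FPKM against 15.9 to 31.8 FPKM (median 24.1), difference 2.01 ± 0.26, adjusted p = 2.91e-04) and Rbm3 (difference 0.62 ± 0.14, adjusted p = 0.00622) were among the 4 higher ones, with Herpud1 and Sel1l of protein disposal at the endoplasmic reticulum. The call of Sel1l was kept in 4 of the 13 fits, without CON1, CON6, CON8 or TM6. A heat shock element, searched as GAANNTTCNNGAA and as TTCNNGAANNTTC on the other strand, was found in 2 of 8 genes called lower that have a promoter (Hspe1 and Hspd1). It was in 0 of 20 others and in 0.466% of all promoters. Whether the matches of Hspe1 and Hspd1 are 1 shared site was not tested.

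The list of glucocorticoid-induced genes gave the highest count of higher genes among the lists. Of 28 tested, 19 were higher and none was lower (median 1.03), where 14.3% of all genes were higher. The count was 15 to 21 when single libraries were left out. Besides induced genes the list holds genes of steroid synthesis and its control (Cyp11a1, Cyp11b1, Star and Nr5a2) and the receptor gene Nr3c1. Ddit4, an inhibitor of mTORC1 that responds to stress hormones and low oxygen, stood at 56.1, 143, 44.9, 182 and 117 FPKM against 7.98 to 15.9 FPKM (median 13.6) (difference 2.76 ± 0.29, adjusted p = 9.34e-05). Fkbp5, a chaperone of the glucocorticoid receptor, stood at 86, 252, 88.6, 289 and 188 FPKM against 31.1 to 88.7 FPKM (median 48.6) (difference 1.64 ± 0.32, adjusted p = 0.00303). Zbtb16, a zinc finger factor, stood at 14, 49.8, 9.38, 50.6 and 35.2 FPKM against 3.31 to 13.4 FPKM (median 7.95) (difference 1.74 ± 0.43, adjusted p = 0.0117). In these genes TM5, TM7 and TM8 were high and TM3 and TM6 lower, and TM3 and TM6 lay inside the CON range for Fkbp5, as did TM6 for Zbtb16. Sgk1, a kinase that stabilises the epithelial sodium channel (1.42 ± 0.35), Tat, a tyrosine-degrading enzyme (1.78 ± 0.21), Cebpd (1.68 ± 0.16) and Tsc22d3 (0.76 ± 0.25) rose too, the last with a call lost without CON6, CON8, TM5, TM7 or TM8. Lcn2, Nfkbia and Per1 are members of this list and of others above.

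Clock genes were higher in 7 of 20 cases and lower in 1 (median 0.47). Per1, a clock repressor, stood at 12.6, 29.4, 14.1, 22 and 23.3 FPKM against 2.27 to 6.52 FPKM (median 4.59) (difference 1.87 ± 0.22, adjusted p = 1.38e-04). Nfil3, which represses clock outputs, stood at 27.4, 35.1, 17.1, 29.4 and 31.2 FPKM against 3.85 to 10.8 FPKM (median 7.87) (difference 1.77 ± 0.21, adjusted p = 1.38e-04). Both were above CON in each TM library. Cry2 rose (difference 0.99 ± 0.26, adjusted p = 0.0133), while the one lower gene was Clock itself (difference -0.24 ± 0.08, adjusted p = 0.0498), a call lost in 10 of the 13 fits and kept without CON3, TM3 or TM6. The labels give no hour of tissue collection, and its part in these values was not tested.

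**Figure D2:**
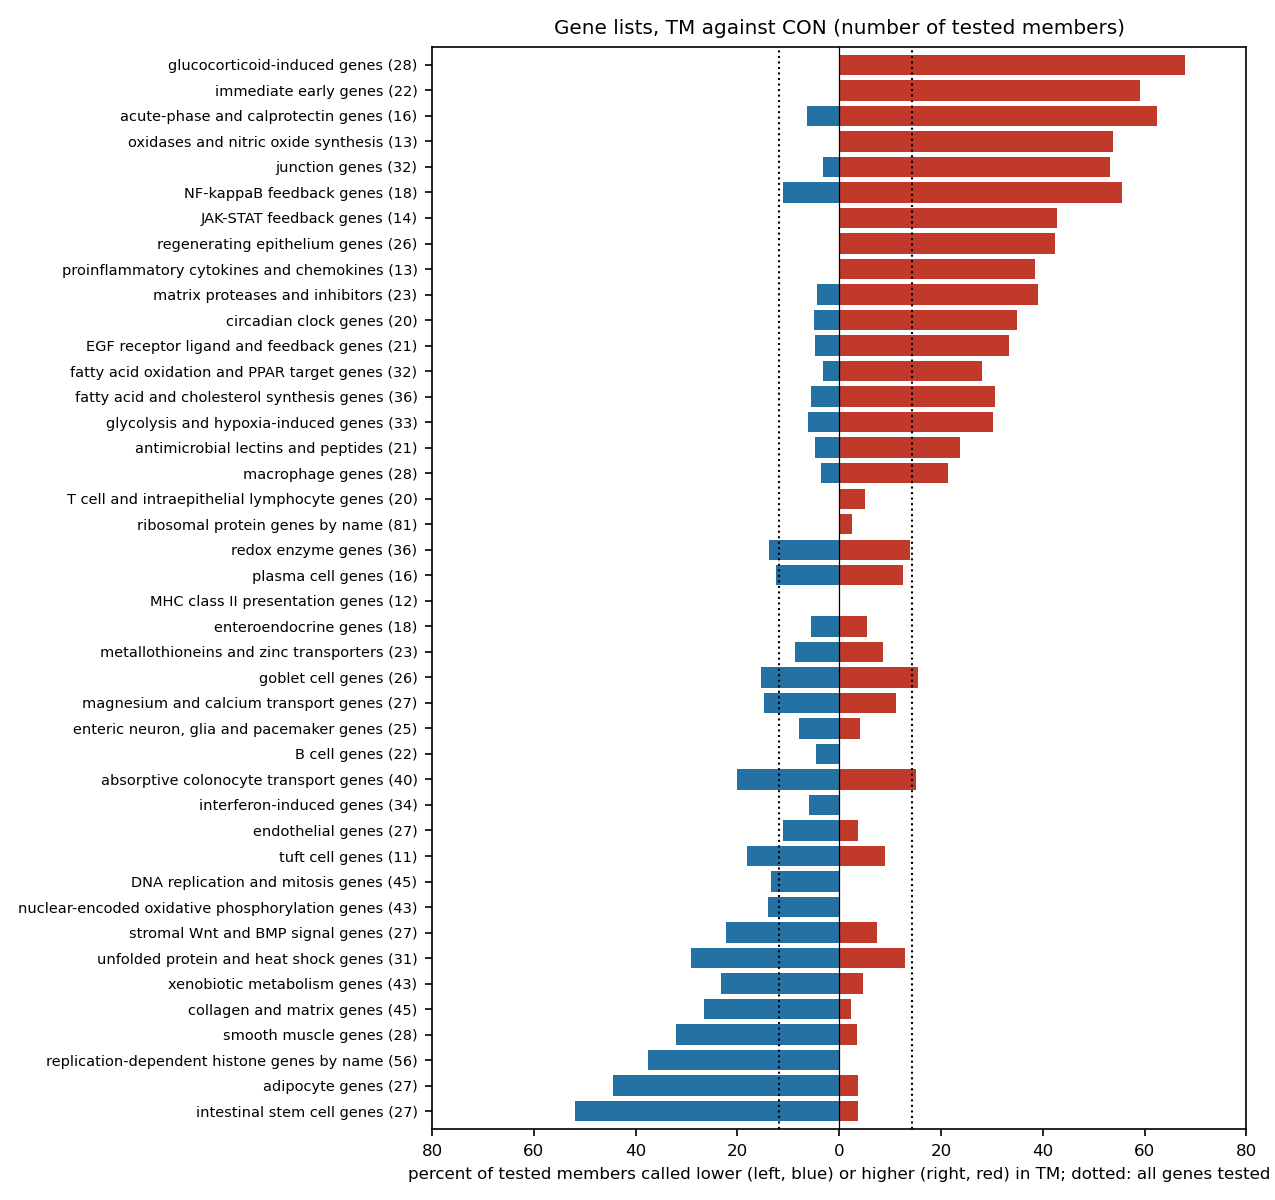
Percent of the tested members of each gene list (lists with at least 10 tested) called higher (right) or lower (left) in TM than in CON at an adjusted p under 0.05. Dotted lines mark the shares over all genes tested, 14.3% higher and 11.8% lower; glucocorticoid-induced genes reach furthest to the right and stem cell genes furthest to the left.

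Junction genes rose: 17 of 32 were higher and 1 lower (median 0.41; 3 lower without CON8), the count of higher genes staying at 16 to 19 when single libraries were left out. Besides Cldn4 these included the scaffolds Tjp3 (0.62 ± 0.13) and Cgn (difference 0.73 ± 0.11, adjusted p = 6.47e-04), the adhesion genes Cdh1 (0.65 ± 0.13), Dsg2 (0.88 ± 0.20) and Dsp (0.66 ± 0.13) and the polarity gene Pard6b (difference 1.08 ± 0.13, adjusted p = 1.20e-04). Cgn, which ties tight junctions to actomyosin, stood at 41.1, 47.5, 42, 49.6 and 44.7 FPKM against 21 to 32.4 FPKM (median 25.9), with no overlap. The exception was Cldn15, a claudin that forms a pore for cations, which fell from 77.6 to 115 FPKM (median 93.3) to 64.9, 32.8, 47.9, 18.5 and 21.6 FPKM (difference -1.49 ± 0.24, adjusted p = 8.66e-04). Cldn2, another pore claudin, and Cldn8, a sealing claudin, were not called (-0.24 ± 0.21, adjusted p = 0.421, and -0.37 ± 0.19, adjusted p = 0.162).

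Transport genes of the surface colonocyte moved in both directions, 6 higher and 8 lower of 40 (median 0.02, a sign that turned with upper quartile scaling, and 5 lower without TM7). Scnn1g, one of the higher ones, entered the test through TM alone. Its call was lost in 4 of the 9 fits without 1 library that tested it. Car2, a carbonic anhydrase that supplies bicarbonate, stood at 237, 134, 264, 117 and 159 FPKM against 361 to 491 FPKM (median 434) (difference -1.29 ± 0.17, adjusted p = 2.91e-04). Kcnn4, a calcium-gated potassium channel, stood at 13.1, 10.2, 13, 7.74 and 9.97 FPKM against 15.2 to 27.3 FPKM (median 19.9) (difference -0.87 ± 0.15, adjusted p = 0.00114). Hsd11b2, which inactivates glucocorticoids in mineralocorticoid target cells, went the other way, at 91.4, 207, 129.6, 215 and 149.8 FPKM against 31.3 to 86.1 FPKM (median 54.8) (difference 1.48 ± 0.26, adjusted p = 0.00179). None of the 3 overlapped between groups. The chloride channel Cftr was slightly lower (difference -0.43 ± 0.10, adjusted p = 0.00682). Car1 was lower (difference -0.79 ± 0.24, adjusted p = 0.0231), a call lost without TM5 (adjusted p = 0.0645) or TM7 (adjusted p = 0.0706; 0.0100 to 0.0706 over the 13 fits). The anion exchanger Slc26a3 (-0.64 ± 0.33, adjusted p = 0.167), Car4 (0.58 ± 0.53, adjusted p = 0.447) and the water channel Aqp8 (0.01 ± 0.76, adjusted p = 0.996) were not called. Car4 was at 24.1 FPKM in TM3, far below the other TM libraries (148 to 237 FPKM).

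Genes of ion handling were read separately, given the salts of deep sea water. Of 27 magnesium and calcium transport genes 3 were higher and 4 lower, 25.9% called, near the 26.0% of all genes (median 0.04). Nipal1, a magnesium transporter, stood at 35.3, 40.6, 30.3, 36.8 and 37.6 FPKM against 13.9 to 25 FPKM (median 22.1) (difference 0.77 ± 0.13, adjusted p = 0.00108), with no overlap. Atp2a2, the calcium pump of the endoplasmic reticulum, was higher (difference 0.37 ± 0.09, adjusted p = 0.00948) and Magt1, a magnesium transporter that is also a subunit of the glycosylation machinery, lower (difference -0.54 ± 0.13, adjusted p = 0.00850). Trpm6, the main channel for magnesium uptake in colon, was not called: 8.63, 24.7, 14.7, 13.2 and 16.5 FPKM against 8.70 to 16.2 FPKM (median 13.3) (difference 0.15 ± 0.19, adjusted p = 0.587). Of 23 metallothionein and zinc transport genes 2 were higher and 2 lower, with 4 higher without CON8 and 5 lower without TM3. Slc39a1, a zinc importer, was higher (difference 0.37 ± 0.08, adjusted p = 0.00555), and the calls of Slc39a13 and Slc39a14 were lost in 11 and 10 of the 13 fits that left out 1 library.

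Lists of secretory cells gave calls in both directions. Of 26 goblet cell genes 4 were higher and 4 lower, 30.8% called against 26.0% of all genes (median -0.10), and 8 were lower without CON8. Muc13, a mucin of the cell membrane, stood at 942, 1016, 907, 1214 and 1142 FPKM against 472 to 709.7 FPKM (median 624) (difference 0.78 ± 0.12, adjusted p = 5.69e-04). Foxa3 (difference -0.54 ± 0.11, adjusted p = 0.00394) and Creb3l4 (difference -0.63 ± 0.12, adjusted p = 0.00238), transcription factors of goblet cells, were lower. Muc2, the main mucin of the mucus layer, was at 2249, 5345, 3063, 4882 and 5289.7 FPKM against 4539.6 to 6659 FPKM (median 5854) and was not called (difference -0.54 ± 0.20, adjusted p = 0.0526). Tff3, a trefoil peptide secreted with it, was not called (difference 0.47 ± 0.21, adjusted p = 0.113). Of 11 tuft cell genes 1 was higher and 2 lower (27.3% called), and of 18 enteroendocrine genes 1 was higher and 1 lower (11.1%). The higher ones were Ptgs1, a prostaglandin synthase (difference 0.61 ± 0.18, adjusted p = 0.0210, a call lost without TM5 or TM8), and Nts, the peptide neurotensin (difference 0.82 ± 0.23, adjusted p = 0.0190, a call lost without TM7). Dclk1, a tuft cell marker (difference -0.72 ± 0.13, adjusted p = 0.00146), and Ddc, which makes serotonin in enteroendocrine cells (difference -0.69 ± 0.10, adjusted p = 4.53e-04), were below CON in each TM library.

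In the list of 36 fatty acid and cholesterol synthesis genes 11 were higher and 2 lower (median 0.23; 4 lower without TM3). Fdft1, which commits farnesyl units to sterols, stood at 40.3, 23.5, 29.4, 23 and 27.1 FPKM against 12.7 to 20.4 FPKM (median 16.7) (difference 0.74 ± 0.14, adjusted p = 0.00238). No TM value overlapped CON. The regulator Srebf2 (0.59 ± 0.14) rose with it. The 2 lower ones were Scd1, which desaturates fatty acids, and Acss2, which makes acetyl-CoA (difference -0.44 ± 0.11, adjusted p = 0.00914). Glycolysis and hypoxia genes were higher in 10 of 33 cases and lower in 2 (median 0.30). Hk2, the inducible hexokinase, stood at 64.9, 78.4, 35.3, 35 and 59.7 FPKM against 14.2 to 25.2 FPKM (median 19.3) (difference 1.43 ± 0.19, adjusted p = 2.91e-04). P4ha1, a collagen prolyl hydroxylase, fell (difference -1.03 ± 0.14, adjusted p = 2.91e-04). Of 32 fatty acid oxidation genes 9 were higher and 1 lower, 4 higher without TM7 and 5 without TM5. Acadl, an acyl-CoA dehydrogenase, had the smallest p of them (difference 0.78 ± 0.14, adjusted p = 0.00200). Of 43 oxidative phosphorylation genes none was higher and 6 were lower, 14.0% called (median -0.11). That count was 1 without TM5 or TM7, 2 to 3 without CON1, CON3, CON4, CON5, TM6 or TM8 and 10 without TM3. It was 13 with upper quartile scaling and 15 (with 1 higher) with quantile normalization. Over all genes tested, 2001 were lower without TM3, 2269 with upper quartile scaling and 1643 with quantile normalization.

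Genes that handle foreign compounds were lower in 10 of 43 cases and higher in 2 (median -0.32). Fmo1, one of the lower ones, entered the test through CON alone, and its call was lost without TM7. Sult1c2, a sulfotransferase, fell from 33.2 to 58.8 FPKM (median 51.2) to 10.1, 16.9, 21.6, 13 and 21.8 FPKM (difference -1.51 ± 0.19, adjusted p = 1.50e-04), without overlap. Cyp2c55, an abundant colonic cytochrome, stood at 505, 839, 935, 537 and 1673 FPKM against 1515 to 2213 FPKM (median 1872) (difference -1.18 ± 0.23, adjusted p = 0.00239), with TM8 inside the CON range. Ugt2b5, a glucuronosyltransferase, fell (difference -0.98 ± 0.16, adjusted p = 9.93e-04). With upper quartile scaling 17 were lower, in a fit where 2269 of 13485 genes were lower. Redox enzymes gave 5 higher and 5 lower of 36, 27.8% called against 26.0% of all genes, and 9 lower without TM3 or 2 without TM5 or TM7. Gpx3, a secreted glutathione peroxidase, stood at 55.1, 37.4, 45.6, 45 and 49.3 FPKM against 15.6 to 22.7 FPKM (median 18.7) (difference 1.24 ± 0.11, adjusted p = 1.9e-05), without overlap. Nfe2l2, the regulator of the antioxidant response, was lower (difference -0.75 ± 0.18, adjusted p = 0.00832), while Gclc, the rate-limiting enzyme of glutathione synthesis, was higher (difference 0.68 ± 0.14, adjusted p = 0.00313).

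The largest decreases included genes of fat cells. Of 27 adipocyte genes 12 were lower and 1 higher (median -0.89), where Adrb3, Plin1, Slc36a2 and Slc7a10 entered the test through CON alone. Car3, a carbonic anhydrase abundant in adipose tissue (chromosome 3, 14863538 to 14872381), stood at 3.61, 1.04, 1.51, 6.08 and 4.68 FPKM against 23.6 to 442 FPKM (median 147) (difference -4.94 ± 0.65, adjusted p = 5.29e-04). Adipoq, the hormone adiponectin, stood at 1.92, 0.295, 0.903, 0.647 and 3.46 FPKM against 3.96 to 64.9 FPKM (median 26.7) (difference -3.35 ± 0.61, adjusted p = 0.00264), and resistin (Retn) at 1.60, 0, 0.391, 1.95 and 2.66 FPKM against 2.96 to 73.4 FPKM (median 14.9) (difference -2.88 ± 0.63, adjusted p = 0.00662). TM lay below CON in the 3 genes, and CON spread over more than 10-fold in each. Cfd, the adipocyte factor adipsin, fell (difference -3.42 ± 0.71, adjusted p = 0.00555), as did Cyp2e1, an ethanol-metabolising cytochrome (difference -3.38 ± 0.63, adjusted p = 0.00317), Scd1 (difference -2.54 ± 0.60, adjusted p = 0.00970) and the lipid droplet coat Plin1 (difference -2.03 ± 0.52, adjusted p = 0.0133). Pnpla2, which starts the breakdown of stored fat, was the higher one (difference 1.04 ± 0.27, adjusted p = 0.0133). The summed FPKM of the 30 adipocyte genes was 561 to 715.4 in TM and 572.3 to 2395 in CON, and the part that the amount of fat tissue in a sample has in these genes was not tested.

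Smooth muscle genes were lower in 9 of 28 cases and higher in 1 (median -0.37). Cnn1, the actin-binding calponin, stood at 96, 111, 103, 49.2 and 106 FPKM against 132 to 293 FPKM (median 199) (difference -1.14 ± 0.23, adjusted p = 0.00328). Pln, which restrains the calcium pump of muscle, stood at 3.69, 3.34, 6.72, 2.45 and 5.05 FPKM against 6.88 to 24.3 FPKM (median 15.1) (difference -1.63 ± 0.26, adjusted p = 8.45e-04). Each TM library lay below CON for both, TM7 being the lowest. The list summed to 2051 to 3899 FPKM in TM and to 2676 to 4830 in CON. Of 4 skeletal muscle genes tested 3 were lower, Des (also a smooth muscle gene), Eno3 and Ckm (the last a call lost without TM3, TM6 or TM7), and that list of 18 summed to 89.4 to 189.5 FPKM in TM and 187.9 to 454.8 in CON. Of 3 exocrine pancreas genes tested 1 was lower, the lipase cofactor Clps (difference -1.89 ± 0.26, adjusted p = 4.13e-04), and the 18 pancreas genes summed to 12.6 to 84.8 FPKM in TM and 32.2 to 242 in CON, with the trypsinogen gene Prss1 at 0. The 18 squamous epithelium genes summed to 2.33 to 4.91 FPKM in TM and 1.44 to 3.07 in CON, and none passed the filter. The part of tissue composition in the differences was not tested.

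A few of the largest changes belonged to no list. Apod, a lipid-binding apolipoprotein of stroma and glia, stood at 20.9, 17.9, 14.3, 28.9 and 27.3 FPKM against 0.833 to 5.51 FPKM (median 2.22) (difference 2.76 ± 0.28, adjusted p = 6.35e-05). Ctla2a, a cathepsin L inhibitor, stood at 61.3, 198, 33.3, 127 and 112 FPKM against 7.54 to 29.2 FPKM (median 12.1) (difference 2.65 ± 0.43, adjusted p = 0.00126). BB123696, a transcribed locus with no name, stood at 2.55, 13.7, 3.91, 7.86 and 15.2 FPKM against 0.0740 to 0.970 FPKM (median 0.460) (difference 2.51 ± 0.32, adjusted p = 2.10e-04). No TM library entered the CON range in the 3 genes, of which BB123696 entered the test through TM alone. TM3 and TM6 were the lowest TM libraries in BB123696. Nxpe2, a neurexophilin-related gene, stood at 3.71, 11.8, 8.96, 13.9 and 13.8 FPKM against 17.6 to 78.9 FPKM (median 62.5) (difference -2.36 ± 0.35, adjusted p = 7.55e-04), below CON in each TM library. Igfbp2, which binds insulin-like growth factors, stood at 4.68, 1.29, 3.28, 0.544 and 2.14 FPKM against 3.97 to 30.9 FPKM (median 13.4) (difference -2.13 ± 0.45, adjusted p = 0.00537), with TM3 inside the CON range.

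Macrophage genes were higher in 6 of 28 cases and lower in 1 (median 0.28), or lower in 3 without CON8. The share called, 25%, was near the 26.0% of all genes. Cd163, a scavenger receptor for haemoglobin, stood at 4.24, 2.65, 1.98, 3.73 and 2.64 FPKM against 0.841 to 1.53 FPKM (median 1.05) (difference 0.90 ± 0.14, adjusted p = 7.21e-04). Lgmn, a lysosomal protease, stood at 112, 116, 93.4, 157 and 106 FPKM against 50.3 to 79 FPKM (median 62.8) (difference 0.85 ± 0.13, adjusted p = 5.47e-04). Itgam, an integrin of myeloid cells (difference 0.65 ± 0.14, adjusted p = 0.00407), and Cd14 rose as well, and the 4 genes did not overlap CON. Cx3cr1, the fractalkine receptor of resident macrophages, was lower (difference -0.68 ± 0.20, adjusted p = 0.0223), a call lost without TM5 or TM7. Lysozyme 2 (Lyz2), an antibacterial enzyme of myeloid cells, was not called (difference 0.0042 ± 0.21, adjusted p = 0.990). The list summed to 760.9 to 992.1 FPKM in TM and to 491.4 to 840.5 in CON.

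Lymphocyte lists held few calls. None of 12 genes of MHC class II presentation passed, 1 of 22 B cell genes was lower (3 without CON7) and 1 of 20 T cell genes was higher. The B cell gene, Fcer2a, entered the test through CON alone, and its call was lost in 9 of the 13 fits that left out 1 library. Gzma, the T cell gene, a granzyme of cytotoxic cells, stood at 0.649, 2.54, 2.24, 3.28 and 11.6 FPKM against 0.320 to 2.50 FPKM (median 0.618) (difference 1.11 ± 0.38, adjusted p = 0.0447), highest in TM8, and its call was lost in 10 of the 13 fits that left out 1 library (0.69 ± 0.28, adjusted p = 0.0893, without TM8). Of 16 plasma cell genes 2 were higher and 2 lower, 25% called against 26.0% of all genes, with 0 lower without TM7 and 4 without CON8, TM3 or TM6. Cd38, an ectoenzyme that consumes NAD and is also found on epithelium, stood at 244, 103, 191, 220.5 and 166 FPKM against 41.5 to 103 FPKM (median 48.1) (difference 1.67 ± 0.23, adjusted p = 3.64e-04). Prdm1, a factor of plasma cells and of epithelium, was above CON in each TM library (difference 0.78 ± 0.15, adjusted p = 0.00224). Kit, found on mast cells and pacemaker cells, was lower (difference -0.64 ± 0.21, adjusted p = 0.0367), a call lost in 5 of the 13 fits.

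Interferon-induced genes depended on 1 library. Of 34 tested none was higher and 2 were lower, Irf7 (difference -0.65 ± 0.22, adjusted p = 0.0440) and Oas1a (difference -0.41 ± 0.14, adjusted p = 0.0365), 5.88% called. The call of Irf7 was lost in 9 of the 13 fits and kept without CON1, CON2, CON4 or TM8, and that of Oas1a was lost in 6, without CON4, CON5, CON7, TM5, TM6 or TM7. Without TM8 9 were lower and the median moved from 0.13 to -0.35. Zbp1, a sensor of nucleic acids, stood at 7.55, 7.15, 7.17, 11.3 and 56.2 FPKM against 3.87 to 10.2 FPKM (median 5.39). Gbp2, a GTPase that attacks vacuoles of pathogens, stood at 6.79, 3.98, 5.01, 4.87 and 156 FPKM against 4.99 to 8.31 FPKM (median 6.48). Iigp1, another such GTPase, stood at 2.32, 0.967, 0.772, 0.865 and 130.0 FPKM against 0.857 to 2.71 FPKM (median 1.62). TM8 was high in the 3 genes, and none of them passed the test (adjusted p = 0.103 for Zbp1, 0.527 for Gbp2 and 0.468 for Iigp1). The list summed to 1391 FPKM in TM8, to 218.3 to 243.5 in the other 4 TM libraries and to 233.9 to 400.2 in CON. TM8 was also highest among TM in the invariant chain gene Cd74 (86.1, 93.5, 156, 68.1 and 332 FPKM) and in Gzma.

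TM libraries differed along several gene groups at once. TM3 was the highest TM library in the neutrophil genes S100a8 and S100a9, in Saa3, Cxcl1, Col3a1 and Mki67, and the lowest in Car4. TM5 was highest in Lcn2, Nos2, Tnf, Nfkbia and Duox2. TM8 was highest in interferon-induced genes and lowest in S100a8. The stem cell genes Ascl2, Lgr5 and Axin2 were low in the 5 libraries alike. Percent mapped was 92.7 in TM3, 89.5 in TM5 and 91.1 in TM8, and its part in these differences was not tested.

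**Figure D3:**
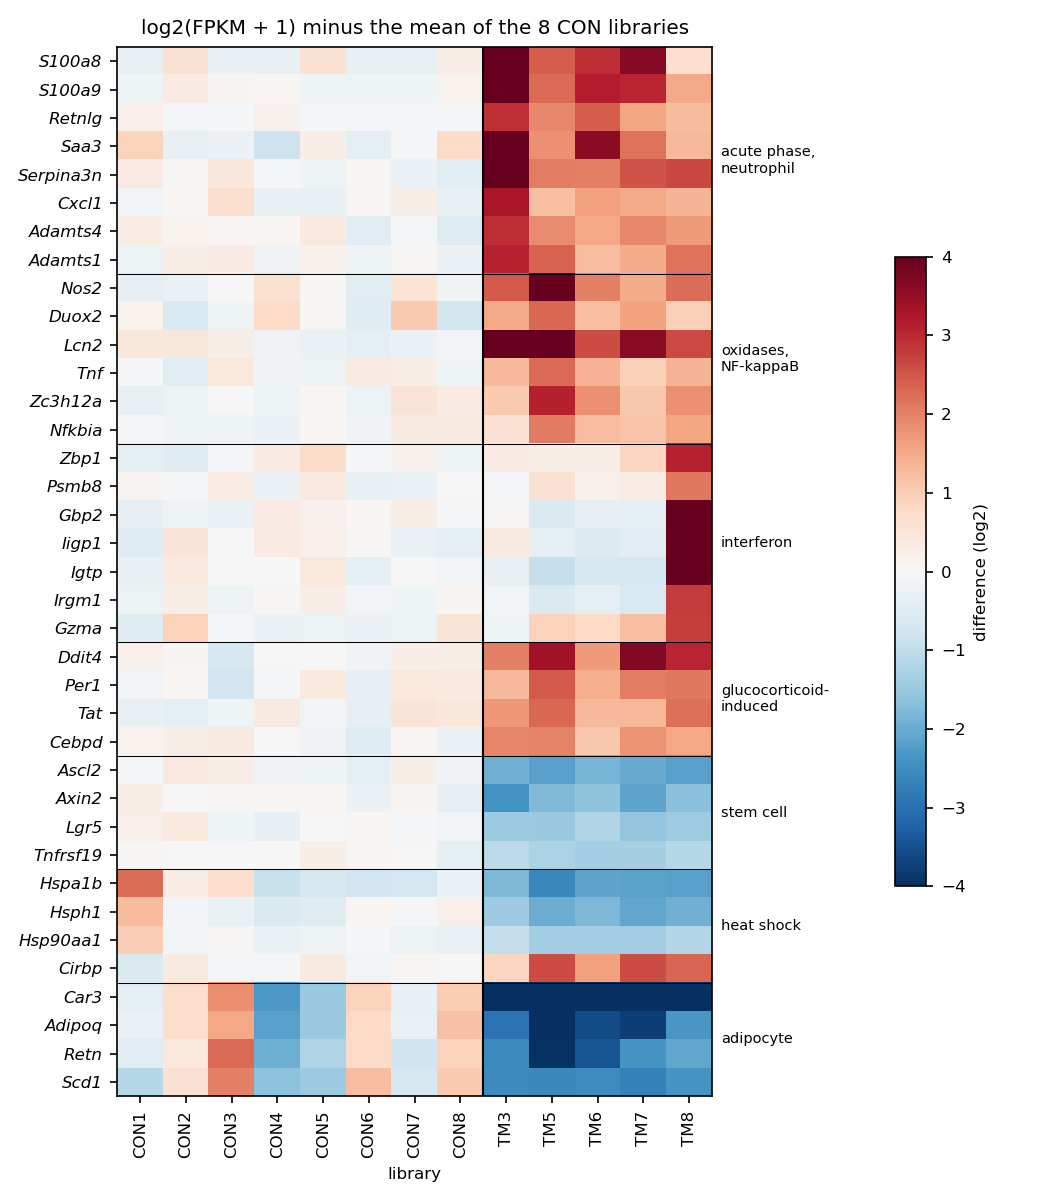
Heat map of log2(FPKM + 1) minus the CON mean for selected genes of the lists (vertical) in the 13 libraries (horizontal), with colours capped at 4 in either direction. Increases of Lcn2 and Nos2 and decreases of Ascl2 and Axin2 run through the 5 TM libraries, while Gbp2 and Iigp1 are high in TM8 and S100a8 and Cxcl1 are highest in TM3.

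The same TM libraries were set against the other colitis groups in a fit of TM, DSS and HMLS. A gene without a call in this fit is not thereby shown to be shared with mice given DSS in other water. Standard errors were wide for some genes, and changes were simulated for TM against CON only. Against DSS, 0 of 13341 genes passed in limma (0% called), and 367 genes, 2.75%, had an unadjusted p under 0.05. Against HMLS, 0 genes passed (0%), with 1260, 9.44%, at an unadjusted p under 0.05. TM against DSS and TM against CON share the TM libraries, and their values are given side by side only. Lcn2 differed from DSS by 0.64 ± 1.01, Nos2 by 0.24 ± 0.54, Reg3b by -0.74 ± 0.38 and Axin2 by -0.18 ± 0.28, against differences from CON of 3.64, 2.46, 3.28 and -1.91. DSS libraries spread from 1.40 to 127 FPKM in Lcn2.

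The smallest p-values against DSS belonged to Mzb1 and Pou2af1, genes of antibody-secreting and B cells, and to Lyz2, higher in TM. Lyz2 stood at 77.3, 88.1, 117, 62.4 and 63.3 FPKM in TM, at 45.4, 34.6, 49.7, 29 and 39 FPKM in DSS libraries and at 46.3 to 112 FPKM in CON (1.01 ± 0.23 against DSS). Each TM library lay above each DSS library in this gene, which was picked by its p, and TM6 alone lay above the CON range. Mzb1 entered this fit through TM libraries alone, the only ones of the fit at 1 FPKM or more. It stood at 2.58, 2.53, 4.83, 1.44 and 0.581 FPKM against 0.499, 0, 0.171, 0.296 and 0.241 FPKM in DSS (1.33 ± 0.27). Lower in TM by p were Ggt1, which cleaves glutathione (-1.18 ± 0.23), Mall (-0.47 ± 0.13) and the predicted gene Gm10845 (-0.44 ± 0.12). None of these passed, each at an adjusted p of 1.0.

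Against HMLS the smallest p-values belonged to Ets1, a lymphocyte transcription factor (0.85 ± 0.15), Lyz2 (1.28 ± 0.25) and Mzb1 (1.46 ± 0.29), higher in TM at an adjusted p of 0.278 each. Scd1 (-0.98 ± 0.20, adjusted p = 0.278), the ubiquitin ligase Wwp1 (-0.47 ± 0.11, adjusted p = 0.309) and the olfactory receptor gene Olfr613 (-0.62 ± 0.15, adjusted p = 0.341) were lower. Scd1 stood at 6.53, 6.46, 6.81, 5.76 and 7.69 FPKM in TM and at 8.19, 21.6, 15.3 and 14.2 FPKM in HMLS. Without HMLS replicate 3, the complement gene C1qa (1.88 ± 0.24, adjusted p = 0.0153), Lyz2 (1.53 ± 0.22, adjusted p = 0.0341) and Scd1 (-1.22 ± 0.15, adjusted p = 0.0153) passed. In each of the other fits that left out 1 library 0 genes passed against HMLS.

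**Figure D4:**
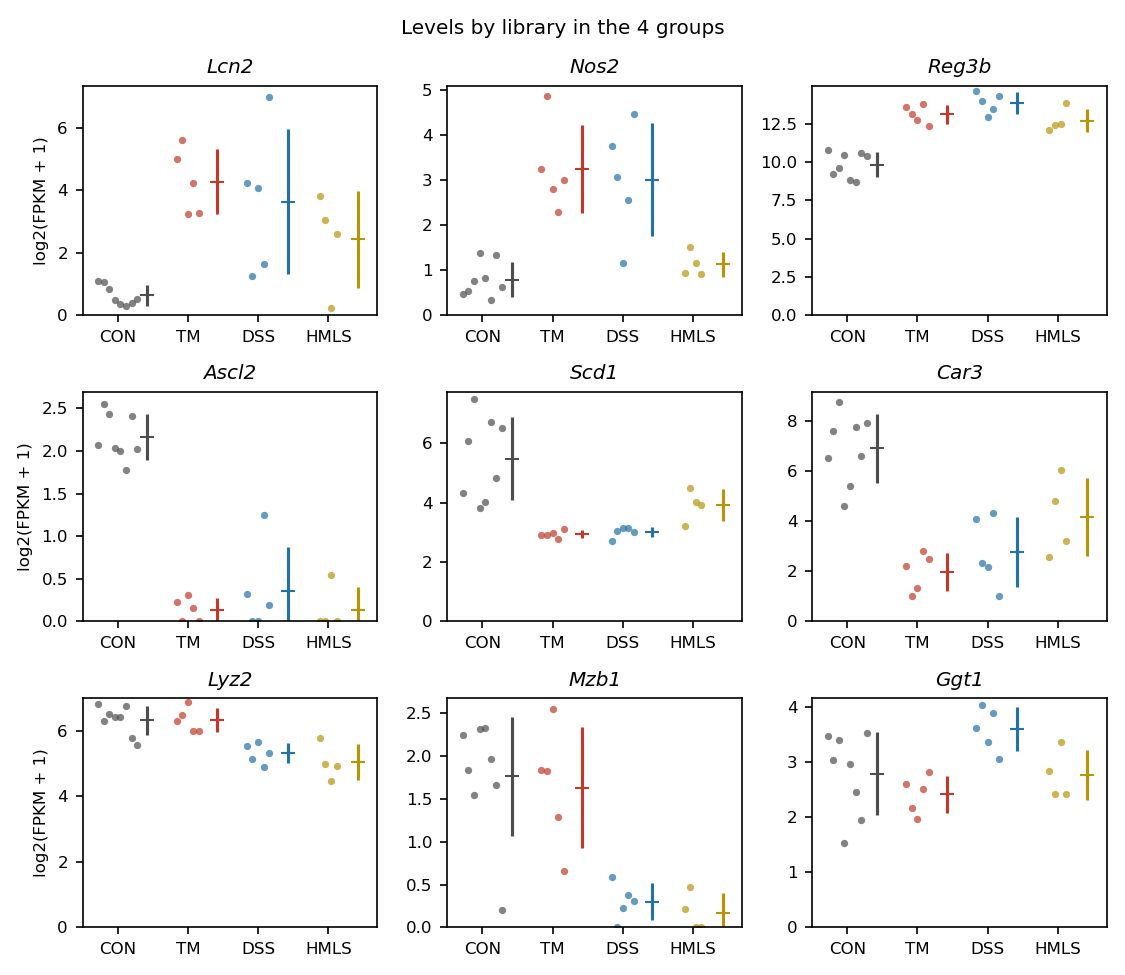
FPKM on a log2(FPKM + 1) axis of 9 genes in the 4 groups (8 CON, 5 DSS, 4 HMLS, 5 TM libraries), with points for libraries and bars for the mean ± SD. Lcn2, Nos2 and Reg3b lie above CON and Ascl2 below it in TM, whereas Lyz2 and Mzb1 of TM lie above DSS and, apart from TM6, in the CON range.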

How the data were processed

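Colon RNA was sequenced in 22 libraries, and the 5 TM and 8 CON libraries were compared by their labels. RNA came from flash frozen colon by Trizol, and a TruSeq stranded total RNA kit gave the libraries, per the labels. Tools in the submitters' processing notes are bcl2fastq 2.20, Bowtie with no version, TopHat2 2.0.13, Cufflinks 2.2.0 and the build mm10, with no settings. The authors deposited one table of 23997 genes, whose header names no unit, and its values were read as FPKM because the notes name Cufflinks. Of its genes 2338 were at 0 in all libraries, 2 names were duplicated and 27 had the form of dates. The deposited sample table gives, for each library, a count of total and mapped reads and the percent mapped. The number of reads behind each gene is unknown, so precision rests on the spread between libraries.

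From these values log2(FPKM + 1) was tested with limma 3.58.1 in R 4.3.3 (trend and robust variance), on genes that reached 1 FPKM in 4 or more of the libraries fitted, which left out 10512 genes. TM against CON used its own 13 libraries, and TM against DSS and HMLS shared a fit of the 3 colitis groups. Benjamini-Hochberg adjustment ran over all genes tested, with a threshold of 0.05. Measures of whole libraries had an exact permutation test, two-sided. In data simulated from these libraries over 13350 genes, 91% of 100 genes changed 2-fold and 66% of 100 genes changed 1.5-fold were called in TM against CON, with 9 unchanged genes called.

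The comparison, the 47 gene lists and the tests were chosen with earlier results of these data known. Genes were named by a rule: the 12 largest increases and 12 largest decreases among called genes that averaged 1 FPKM or more where they were higher, at most 4 genes per list by p, a panel of 24 genes, and the 3 smallest p in each direction against DSS and HMLS. Other list members named in the text, and the histone and ribosomal protein sets, were chosen after their values were seen. The largest changes leave out antigen receptor segments, pseudogenes, small RNAs and predicted genes. Positions and promoters came from RefSeq, GRCm38.p6, matched by symbol for 195 of 195 genes named by the rule. A few list members are counted in their lists but not reported singly here.

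Replicate numbers are shared between groups. Deviations of same-numbered TM and DSS libraries correlated at 0.438, 0.265 and 0.143 (replicates 5, 6 and 7), and TM3 and TM8 had no same-numbered DSS library. Same-numbered TM and HMLS libraries correlated at -0.224 to 0.0565. The differences from DSS and HMLS given above come from the fit without pairs. An alternative fit with the replicate number as a block also called 0 genes against DSS. TM and CON numbers did not pair. Alternatives were other pseudocounts, filters and scalings, percent mapped as a covariate, the replicate block, a test against a fold above 1.2, a fit of all 22 libraries and leaving out each library in turn.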

Additional observations from a re-analysis of the deposited data

Results flagged for a closer look

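Of 398 group values checked, 27 had a library at the end of its group whose gap to the next, as a share of the group's range, was above Dixon's 95% limit. Chance gives about 1 in 20 such groups. CON8 was the library in 11 of them. It was lowest in CON for Nxpe2 (0.64), Cldn8 (0.584), Osmr (0.553), Tnfrsf19 (0.54), Creb3l4 (0.561), Ptgs1 (0.535), H2-Eb1 (0.54) and Lox (0.533), and highest for Gclc (0.59), Slc5a1 (0.545) and the percent of FPKM in the 10 most abundant genes (0.738). Its share in those 10 genes was 20.6%, against 13.9% to 15.6% in the other CON libraries. CON1 was highest for Ang4 (0.534), Hsph1 (0.568) and Hsp90aa1 (0.747) and lowest for Col14a1 (0.59). CON3 was lowest for Ddit4 (0.58), CON7 for Slc39a14 (0.577), and CON6 was highest for Dclk1 (0.528).

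Among TM libraries, TM3 was highest for Cxcl1 (0.794) and Adamts4 (0.737) and lowest for Car4 (0.791). TM8 was highest for Zbp1 (0.789) and Hbegf (0.733). TM6 was lowest for Maff (0.831), Slc39a14 (0.796) and Cd81 (0.757), and TM7 for Cnn1 (0.818). The Maff value of TM6, 8.62 FPKM, lay inside the CON range of 3.94 to 9.06 FPKM (median 7.05), while the Cd81 and Cnn1 values lay further below CON than those of the other TM libraries.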

How the results depend on the processing

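The count of 3510 genes that differed between TM and CON became 2000 (1086 higher, 914 lower) with the replicate block and 470 (255 higher, 215 lower) in a test against a fold above 1.2. In that test the lower stem cell genes numbered 9, the higher glucocorticoid-induced genes 9, the higher junction genes 4 and the higher cholesterol and fatty acid genes 0. Same-numbered TM and CON libraries correlated at 0.208, 0.156, 0.028, -0.001 and 0.205 for replicates 3, 5, 6, 7 and 8, and 1 of 5 matched its own number best, so these numbers were not treated as pairs. Leaving out 1 library gave 2501 (without TM5) to 4170 (without TM3) called genes. With the block the higher glycolysis genes numbered 5 and the higher fatty acid oxidation genes 4, the higher matrix proteases 5, the lower redox genes 1, the lower replication genes 10, the lower histone genes 33 and the lower oxidative phosphorylation genes 0, and stromal Wnt and BMP genes gave 1 higher and 1 lower. Against HMLS the leave-one-out counts ran from 0 to 3 (0 to 2 higher, 0 to 1 lower), the highest without HMLS replicate 3. The difference in percent mapped ran from 0.215 to 1.01 points (exact permutation p = 0.0444 without TM5, the highest value). The difference in the share of the 10 most abundant genes, -0.509 points, ran from -0.796 to 0.181 in leave-one-out and was 0.431 for the 50 most abundant genes. Genes without a call turned in sign: Ptgs2 to -0.10 (pseudocount 0.1), -0.0218 (pseudocount 0.5), -0.0268 (upper quartile) and -0.13 (percent mapped as a covariate), Aqp8 to -0.0678 (upper quartile) and -0.0821 (quantile), and Spink3 to 0.27 (replicate block). Leave-one-out values ran from -0.31 to 0.27 for Ptgs2, -0.33 to 0.36 for Aqp8, -0.84 to 0.0561 for Spink3, -0.0242 to 0.33 for Trpm6 and -0.25 to 0.79 for Hbb-b1. The cause was not tested. Of the 160 genes named by the rule and called, 137 kept their call in each leave-one-out fit that tested them.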

Other observations

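Of 27 stromal Wnt and BMP genes 2 were higher and 6 lower, 29.6% called against 26.0% of all genes, and the count of lower genes was 2 to 3 without TM5, TM7, CON1, CON2, CON3, CON4 or CON7 and 2 with quantile normalization. Chrd, a secreted BMP antagonist, stood at 3.68, 4.62, 1.77, 4.28 and 3.49 FPKM against 0.854 to 1.88 FPKM (median 1.13) in CON (difference 0.99 ± 0.16, adjusted p = 8.71e-04). Bmp3, a BMP family member that opposes the others, rose (difference 0.61 ± 0.19, adjusted p = 0.0295), a call lost without TM5, TM7 or TM8. Cd81, a tetraspanin found on the stromal cells that feed the crypt, was lower (difference -0.56 ± 0.12, adjusted p = 0.00466). Foxl1, a factor of subepithelial telocytes, was at 0.644, 0.113, 0.776, 0.103 and 0.165 FPKM against 0.588 to 1.5 FPKM (median 1.01) (difference -0.61 ± 0.16, adjusted p = 0.0128), and it entered the test through CON alone. Dkk2, another of the lower ones, also entered through CON alone. Its call was lost in 5 of the 9 fits without 1 library that tested it. Of 27 endothelial genes 1 was higher and 3 lower, or 7 lower without CON8. The higher one, the adhesion molecule Vcam1 (difference 0.63 ± 0.22, adjusted p = 0.0499), kept its call in 2 of the 13 fits that left out 1 library, those without CON1 or TM8. Aplnr, the apelin receptor of growing vessels, stood at 1.41, 0.125, 0.818, 0.323 and 0.622 FPKM against 1.47 to 3.71 FPKM (median 2.37), below CON in each TM library (difference -1.09 ± 0.18, adjusted p = 8.84e-04).

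None of the 6 red blood cell genes tested was called, and the 9 genes of the list in the table summed to 306.8 FPKM in TM7, 14.7 to 128 in the other TM libraries and 21.6 to 80.0 in CON. Of 9 small intestine genes 1 was higher and 1 lower, the fatty acid carrier Fabp2 (difference -1.06 ± 0.30, adjusted p = 0.0185, a call lost without TM5).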
